A study of Homo sapiens with 8 samples.

Results

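The expression of 10 genes that decide whether a cell leaves G1 was followed in LM2 cells, a lung metastatic derivative of the triple-negative breast cancer line MDA-MB-231. The genes were listed by name, with earlier results of these data known: the D-type cyclins CCND1, CCND2 and CCND3, the E-type cyclins CCNE1 and CCNE2, the kinases CDK4 and CDK6, and the CIP/KIP inhibitors CDKN1A (p21), CDKN1B (p27) and CDKN1C (p57). All 10 were found by symbol among the 58688 genes counted by RNA-seq, and all 10 had enough counts to be tested. All 8 samples were LM2 cells. Cells given the vehicle DMSO and cells given 1 µmol/L Ponatinib for 6 h had 2 samples each. A scrambled shRNA control (shCtrl), a knockdown by ABL1 shRNA, one by ABL2 shRNA and a double knockdown (ABL1+ABL2 shRNA) had 1 sample each. The shRNA was delivered by lentivirus over 48 h and the surviving cells were selected with puromycin, so each knockdown rests on 1 selected population and, for each gene, 1 hairpin. Ponatinib blocks several tyrosine kinases, among them the ABL family, whose members ABL1 and ABL2 the shRNAs target.

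As background, growth signals raise D-type cyclins, which bind and activate CDK4 and CDK6. These kinases phosphorylate the retinoblastoma protein RB and so release E2F transcription factors, among whose targets are the E-type cyclins. Cyclin E with CDK2 completes the phosphorylation of RB and starts DNA replication. The CIP/KIP proteins bind cyclin-CDK2 complexes and inhibit them, while p21 and p27 also help cyclin D and CDK4 to assemble. In breast cancer CCND1 is the D-type cyclin best known for being overexpressed, and CDK4 and CDK6 are drug targets.

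The total of counts on genes ranged from 7568934 to 13010896 per sample, so that 3 counts, the floor used here, equal 0.231 to 0.396 CPM (counts scaled by the library total). The 6 markers of the MDA-MB-231 lineage, VIM the highest, summed to between 3562 and 5857 CPM in every sample, while the 6 hormone receptor and epithelial markers summed to 15.1 to 22.3 CPM. Summed markers of blood and endothelial cells were 3.13 to 4.71 CPM in the DMSO and Ponatinib samples and 21.6 to 40.7 CPM in the shRNA samples, where PECAM1 reached 40.1 CPM. Those of fibroblasts were 64.1 to 91.2 CPM and 106.6 to 408.3 CPM, where COL1A1 reached 398.2 CPM. The part of these differences in the results below was not tested. The DMSO and Ponatinib samples and the shRNA samples were therefore compared only within each set.

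Promoter sequence was analysed for 6 of the 10 genes, CCND3, CCNE1, CDK4, CDK6, CDKN1A and CDKN1B. The windows ran from 250 bases before to 50 bases after a start site (RefSeq, GRCh38.p14). The promoters of CCND1, CCND2, CCNE2 and CDKN1C were not analysed here. Sequences of 3 are shown because they stand for a cyclin that fell with Ponatinib, an inhibitor that rose and a kinase that changed little. Each runs 5′ to 3′ on the strand of the gene, and capitals mark matches on either strand to 1 of 9 motifs searched. The CCNE1 sequence is chr19:29811741-29811990 on the plus strand, the CDKN1B sequence chr12:12717118-12717367 on the plus strand, and the CDK4 sequence chr12:57752448-57752560 on the minus strand, ended where an annotated CDK4 exon begins.
CCNE1: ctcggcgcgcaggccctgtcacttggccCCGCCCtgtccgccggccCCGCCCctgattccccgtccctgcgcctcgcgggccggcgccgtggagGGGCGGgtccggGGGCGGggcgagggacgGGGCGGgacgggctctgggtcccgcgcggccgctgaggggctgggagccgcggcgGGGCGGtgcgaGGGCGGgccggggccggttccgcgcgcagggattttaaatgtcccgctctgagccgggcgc
CDKN1B: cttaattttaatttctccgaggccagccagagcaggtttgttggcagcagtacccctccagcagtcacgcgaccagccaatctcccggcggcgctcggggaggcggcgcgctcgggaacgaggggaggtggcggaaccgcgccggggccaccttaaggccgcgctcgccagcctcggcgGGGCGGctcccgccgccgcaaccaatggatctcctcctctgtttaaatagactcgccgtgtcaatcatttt
CDK4: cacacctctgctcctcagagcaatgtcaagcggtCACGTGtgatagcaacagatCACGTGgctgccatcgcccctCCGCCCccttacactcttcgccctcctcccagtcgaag
The motifs searched were AP-1 (TGANTCA), the cyclic AMP response element (TGACGTCA) and its core (TGACG, which lies within the former), SP1 (GGGCGG), E2F (TTTNNCGC), the E-box that MYC binds (CACGTG), ETS (CCGGAA), FOXO (GTAAACA) and the TATA box (TATAAA). CCNE1 had 7 SP1 matches in its window and no other motif, CDKN1B had 1 SP1 match and 1 TGACG, and CDK4 had 3 SP1 matches and 3 E-boxes, 2 of them in the stretch shown. SP1 letters occurred in 45.0% of all 35116 promoter windows, TGACG in 24.6% and the E-box in 7.26%. None of the 9 windows of the 6 genes held AP-1 letters, which occurred in 7.71% of all windows. ETS letters were found in 1 CCND3 window and in the CDKN1A window, against 17.2% of all windows. A match is only a run of letters, and its absence says only that these letters are not in this window.

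With Ponatinib, the cyclins that drive G1 fell and 2 of the 3 CIP/KIP inhibitors rose within 6 h, with CCND2 as the exception among the cyclins. Of the 10 genes, 6 fell (CCND1, CCND3, CCNE1, CCNE2, CDK4 and CDK6), 3 rose (CCND2, CDKN1B and CDKN1C) and CDKN1A did not pass the test. The test was edgeR's quasi-likelihood test with a Benjamini-Hochberg adjusted p under 0.05 over the 16031 genes tested, of which 30.7% passed, 15.0% as higher and 15.7% as lower. By the stricter rule of the study's methods, a fold change over 2 with an unadjusted p under 0.05, 5 of the 10 passed (CCND1, CCND2, CCNE1, CCNE2 and CDKN1C), against 5.48% of all genes tested (3.19% as higher and 2.29% as lower). In none of the 10 did the 2 DMSO values overlap the 2 Ponatinib values, but the same held for 64.9% of the genes tested. Nothing in the labels says that the repeats were separate cultures, so the p-values measure only the spread between these samples. In RNA from whole cultures, a lower level in every cell and fewer cells in a phase of the cycle cannot be told apart.

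**Figure D1:**
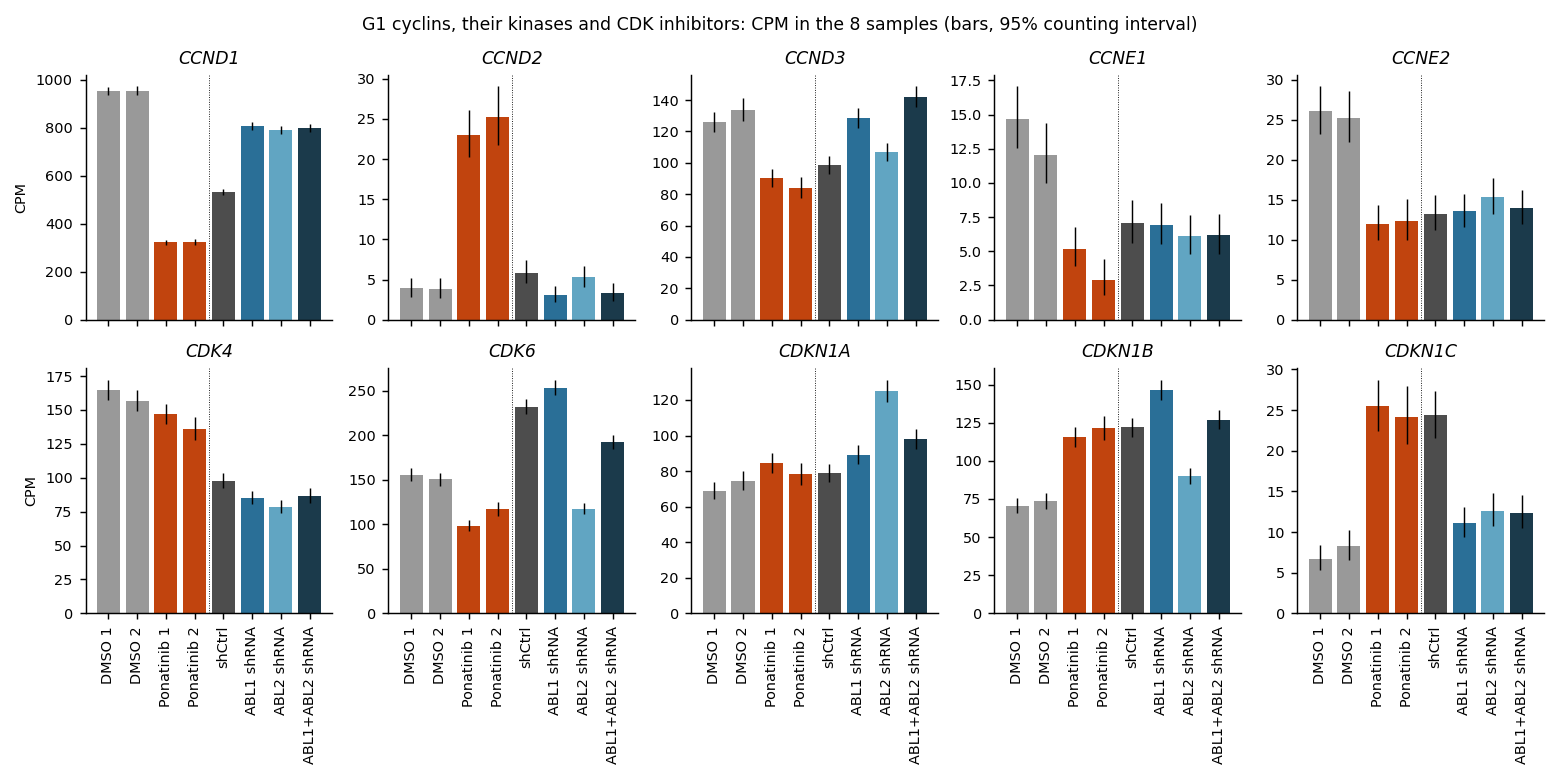
CPM (y axis, linear, from 0, a separate scale in each panel) of the 10 genes in the 8 samples, with 95% exact counting intervals as error bars and a dotted line between the 2 sets of samples. CCND1 stood at 953 CPM in both DMSO samples and at 322 and 323 CPM in the Ponatinib samples, while CCND2 went from under 4 CPM to over 23 CPM.

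CCND1, the main D-type cyclin of these cells (chromosome 11, 69641156 to 69654474, GRCh38), had 970.5 and 970.4 normalized CPM in the DMSO samples and 318.7 and 318.4 in the Ponatinib samples. The values within each pair were nearly identical and the fall was 3.05-fold (log2 fold change -1.61, SE 0.058, edgeR adjusted p = 4.6e-11). LTO1, on the other strand, covers 10.4% of the CCND1 exon bases and was at -0.06 (edgeR adjusted p = 0.69). CCND3 (chromosome 6, 41934934 to 42050357), the D-type cyclin best known from lymphoid cells, had 128.3 and 136.2 normalized CPM with DMSO and 89.1 and 82.7 with Ponatinib. It fell less than CCND1 did, by 0.62 on the log2 scale (SE 0.069, edgeR adjusted p = 7.9e-06). CCND2 (chromosome 12, 4269771 to 4305353), the D-type cyclin that FOXO factors are known to repress in some cells, had 3.98 and 3.85 normalized CPM with DMSO, from 45 and 38 counts. In the Ponatinib samples it had 22.8 and 24.9 normalized CPM, from 240 and 191 counts. That rise of 6.04-fold (log2 fold change 2.60, SE 0.16, edgeR adjusted p = 9.6e-09) was the largest change among the 10 genes.

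The rise of CCND2 made up little of what CCND1 lost. Levels of different genes were set side by side per kb of exon, with every annotated exon base of a gene counted. Which of these exons the cells use was not tested, so orders and shares between genes depend on the annotation. On this scale the 3 D-type cyclins together had 222.5 and 224.0 CPM per kb with DMSO and 86.2 and 85.6 with Ponatinib. CCND1 supplied 89.95% and 89.42% of that sum with DMSO and 78.5% and 79.3% with Ponatinib. The share of CCND2 went from 0.220% and 0.211% to 3.35% and 3.69%, and that of CCND3 from 9.83% and 10.4% to 18.1% and 17.0%. CCND1 thus stayed the most abundant D-type cyclin mRNA in all 4 samples.

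**Figure D2:**
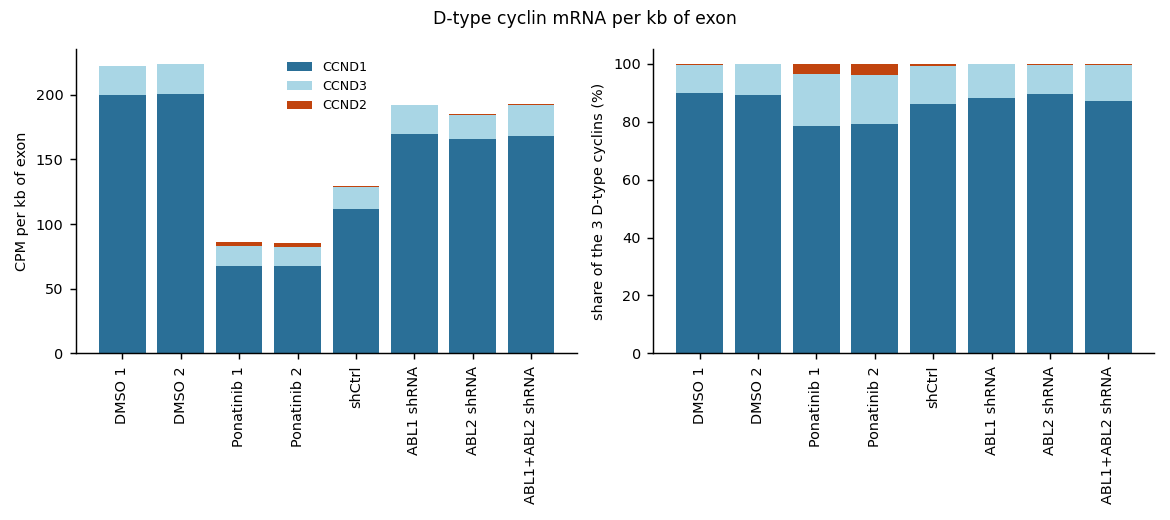
D-type cyclin mRNA in the 8 samples, stacked as CPM per kb of exon (left) and as the share of the sum of the 3 genes in percent (right). The sum is 222.5 and 224.0 with DMSO and 86.2 and 85.6 with Ponatinib, and lies between 129.8 (shCtrl) and 192.8 (both shRNAs) in the shRNA samples.

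Both E-type cyclins, which activate CDK2 at the end of G1, fell. CCNE1 (chromosome 19, 29811991 to 29824312) had 14.96 and 12.3 normalized CPM with DMSO and 5.13 and 2.86 with Ponatinib, from 169, 121, 54 and 22 counts. Its fall was the least precise of the 10, by 1.72 on the log2 scale (SE 0.22, edgeR adjusted p = 2.7e-05), and the log2 fold change ranged from -2.24 to -1.41 when 1 sample was left out. CCNE2 (chromosome 8, 94879770 to 94896678) had 26.6 and 25.7 normalized CPM with DMSO and 11.9 and 12.1 with Ponatinib, a 2.18-fold fall (log2 fold change -1.13, SE 0.12, edgeR adjusted p = 4.3e-06). Summed per kb of exon, the E-type cyclins went from 11.9 and 10.6 CPM per kb to 4.84 and 3.98. INTS8, on the other strand, covers 37.0% of the CCNE2 exon bases, and the strand setting of the counting is not given in the sources used here. Whether reads there were counted for a gene or left out as ambiguous is therefore not known. If they were left out, the level of CCNE2 per kb of exon is understated. INTS8 itself, named for its position, was at -0.03 on the log2 scale (edgeR adjusted p = 0.84).

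The kinases changed less than the cyclins. CDK6 (chromosome 7, 92604921 to 92836573) had 158.3 and 152.9 normalized CPM with DMSO and 97.3 and 115.4 with Ponatinib, and fell by 0.56 on the log2 scale (SE 0.077, edgeR adjusted p = 6.6e-05). CDK4 (chromosome 12, 57747727 to 57756013) had 167.7 and 159.4 normalized CPM with DMSO and 145.5 and 134.3 with Ponatinib, a fall of 1.17-fold (log2 fold change -0.22, SE 0.066, edgeR adjusted p = 0.019). This call was lost without DMSO replicate 1 (edgeR adjusted p = 0.26), without DMSO replicate 2 (edgeR adjusted p = 0.09), with DESeq2's Wald test (adjusted p = 0.07) and with library totals in place of TMM scaling (edgeR adjusted p = 0.053). TSPAN31, on the other strand, covers 44.2% of the CDK4 exon bases and was at 0.13 on the log2 scale (edgeR adjusted p = 0.5). The limit given for the level of CCNE2 per kb of exon holds for CDK4 too.

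Among the inhibitors, CDKN1C rose most. It encodes p57 (chromosome 11, 2883213 to 2885775), an inhibitor best known from development and as an imprinted gene, and had 6.82 and 8.41 normalized CPM with DMSO and 25.2 and 23.8 with Ponatinib, a 3.24-fold rise (log2 fold change 1.70, SE 0.14, edgeR adjusted p = 3.6e-07). CDKN1B, which encodes p27 (chromosome 12, 12685498 to 12722369) and is a known FOXO target, had 71.9 and 74.7 normalized CPM with DMSO and 114.3 and 119.6 with Ponatinib. It rose 1.59-fold (log2 fold change 0.67, SE 0.067, edgeR adjusted p = 2.5e-06). CDKN1A, which encodes p21 (chromosome 6, 36676460 to 36687337) and is the classical p53 target among the 3, had 70.3 and 75.96 normalized CPM with DMSO and 83.5 and 77.1 with Ponatinib. The difference of 0.14 on the log2 scale (SE 0.074, edgeR adjusted p = 0.17) did not pass, although it did without Ponatinib replicate 2 (edgeR adjusted p = 0.034). The sum of the 3 inhibitors went from 33.4 and 36.2 to 50.9 and 48.97 CPM per kb of exon. The share of CDKN1A in it went from 69.1% and 68.9% to 55.3% and 53.3%. These values rest on annotated exon lengths of 2996 bases for CDKN1A, 9255 for CDKN1B and 2480 for CDKN1C.

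**Figure D3:**
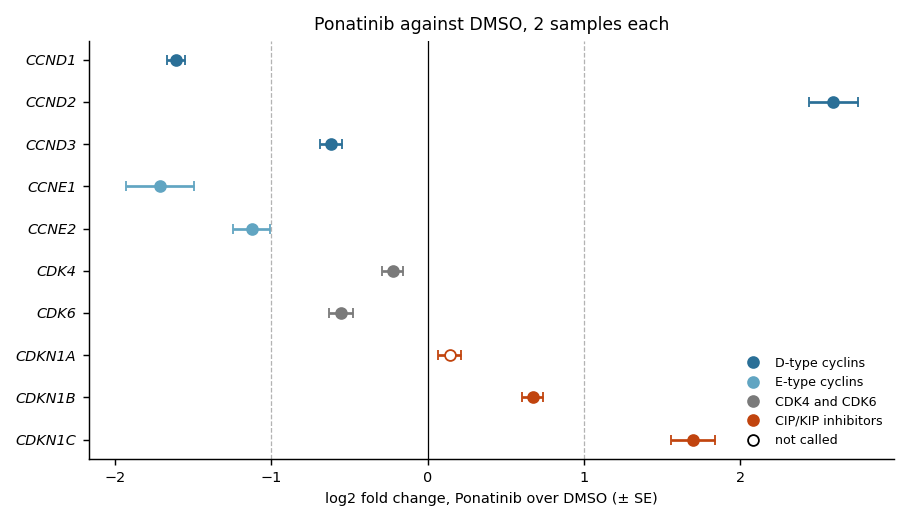
Log2 fold change of Ponatinib over DMSO (x axis) with its SE for the 10 genes, coloured by role, with dashed lines at a 2-fold change and an open circle for the gene that was not called. CCND2 (2.60) and CDKN1C (1.70) lie farthest to the right, CCNE1 (-1.72) and CCND1 (-1.61) farthest to the left.

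The order of the mRNA levels per kb of exon, which depends on the annotated exon lengths, changed as well. With DMSO it ran from CCND1 (mean 200.2 CPM per kb) over CDK4 (51.9), CDKN1A (23.97), CCND3 (22.6), CDK6 (12.5), CDKN1B (7.78), CCNE2 (5.84), CCNE1 (5.43) and CDKN1C (3.01) to CCND2 (0.481). The ranges of the 2 samples overlapped for the neighbours CDKN1A and CCND3 and for CCNE2 and CCNE1 in that order. With Ponatinib the 4 highest kept their order, at 67.8, 45.8, 27.1 and 15.1 CPM per kb for CCND1, CDK4, CDKN1A and CCND3. Below them CDKN1B (12.8) and CDKN1C (10.01) now stood above CDK6 (8.80), and CCND2 (3.02) stood above CCNE2 (2.76) and CCNE1 (1.65). No neighbours in the Ponatinib order had overlapping ranges, though n is 2 for each. These ranges leave out the counting error of each sample, so close neighbours of few counts, such as CCND2 and CCNE2, are not firmly ordered.

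The genes around this group were examined as 10 lists drawn up by function, each described by its counts and its median log2 fold change, which for all genes tested was -0.0047. The counts are to be read against the 15.0% of all genes that rose and the 15.7% that fell. In the RB, E2F and MuvB list, 7 of 19 genes tested fell and 2 rose (median -0.12). The activator E2F3 (-0.76) and the repressors E2F5 (-0.76) and E2F4 (-0.55) fell the most among them (edgeR adjusted p = 2.7e-06, 0.0094 and 3.9e-05). Genes of the G1/S transition under E2F control moved one way where they passed: 15 of 30 fell and none rose (median -0.23), and none of the 30 changed over 2-fold. The 3 largest falls were those of UHRF1 (-0.88), needed to maintain DNA methylation at replication, FEN1 (-0.64), the flap endonuclease of lagging-strand synthesis, and RRM2 (-0.57), a ribonucleotide reductase subunit, with edgeR adjusted p-values of 1.4e-07, 2.6e-06 and 1.5e-05. In the list of G2 and M genes 8 of 25 rose and 1 fell (median 0.15). Its largest changes were small: KIF20A, a kinesin of cytokinesis, at 0.46, the phosphatase CDC25C at 0.39 and CDC20, an activator of the anaphase-promoting complex, at -0.36. That count of 9 went to 14 of 25 when library totals replaced TMM, to 5 without DMSO replicate 1 and to 4 without DMSO replicate 2.

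CDC25A, the phosphatase that removes the inhibitory phosphate from CDK2, went from 53.2 and 52.7 to 19.8 and 20.7 normalized CPM, which is -1.39 on the log2 scale (SE 0.092, edgeR adjusted p = 2.8e-08). It was the largest change among the 7 genes of the CDK2 activation list, of which 2 rose and 2 fell (median -0.01), a count of 4 that went to 1 without either DMSO replicate. CDK2 itself was at -0.23 (edgeR adjusted p = 0.012) and CCNA1, a cyclin A best known from the testis, at 0.41 (edgeR adjusted p = 0.029). Of the 4 INK4 inhibitors, which bind CDK4 and CDK6 alone, CDKN2A and CDKN2B had too few counts to be tested, CDKN2C rose (0.51, edgeR adjusted p = 3.8e-05) and 1 did not pass. Of 13 genes for turnover of G1 regulators, 2 rose and 1 fell (median -0.12), a count of 3 that went to 1 without either DMSO replicate and to 6 without Ponatinib replicate 2. The 3 were SKP1 (0.20) and CUL4B (0.23), components of cullin ubiquitin ligases, and DTL (-0.50), the adaptor through which CUL4 ligases degrade p21 and CDT1 during replication.

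Some transcription factors known to act on these genes had larger falls than any of the 10 genes. Of 21 tested, 8 fell and 5 rose (median -0.07). FOSL1 went from 562.8 and 576.5 to 120.2 and 102.4 normalized CPM, JUN from 280.6 and 295.5 to 64.9 and 61.7, and EGR1 from 14.8 and 16.0 to 2.66 and 3.64. These are immediate or delayed early genes of growth factor signalling, FOSL1 and JUN being subunits of AP-1, which acts on CCND1. Their log2 fold changes were -2.35, -2.18 and -2.31 (edgeR adjusted p = 1.4e-11, 1.4e-11 and 3.4e-07). Chosen after their values were seen, MYC, which acts on CCND2, CDK4 and E2F genes, fell by 0.85 on the log2 scale (edgeR adjusted p = 1.5e-07), and TCF7L2, a factor of the Wnt pathway, which acts on CCND1, rose by 1.11 on the log2 scale (edgeR adjusted p = 1.7e-07). The 3 FOXO genes of the list, whose products act on CDKN1B and on D-type cyclins, were at 1.04 for FOXO1 (edgeR adjusted p = 0.00013), -0.07 for FOXO3 (edgeR adjusted p = 0.57) and -0.0058 for FOXO4 (edgeR adjusted p = 0.99).

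In the p53 target list 8 of 23 rose and 4 fell (median 0.21), and CDKN1A, a classical member of that pathway, is the gene above that did not pass. Whether p53 is functional in these cells was not tested, so these counts are no measure of p53 activity. The 3 largest changes went in both directions: AEN, an apoptosis-associated nuclease, at -2.50, SESN2 at 2.37 and GDF15 at 2.11 (edgeR adjusted p = 7.8e-11, 5.9e-11 and 1.3e-09). SESN2 and GDF15 are also known targets of ATF4 in the integrated stress response. Among the other cyclins, 7 of 21 rose and 1 fell (median -0.05), a count of 8 that went to 3 without either DMSO replicate. CCNG2, a cyclin without a known activating role that is linked to cell cycle arrest and is a FOXO target, went from 41.3 and 43.1 to 137.4 and 154.4 normalized CPM (log2 fold change 1.79, SE 0.078, edgeR adjusted p = 3e-10). Its relative CCNG1 was at 0.53 and CCNJ at -0.47. Of 16 other CDKs tested, 2 rose and 1 fell (median 0.02), a count of 3 that went to 1 without either DMSO replicate and to 5 without Ponatinib replicate 2: the Mediator kinase CDK19 was at 0.57, CDK16 at 0.21 and CDK2 as above.

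**Figure D4:**
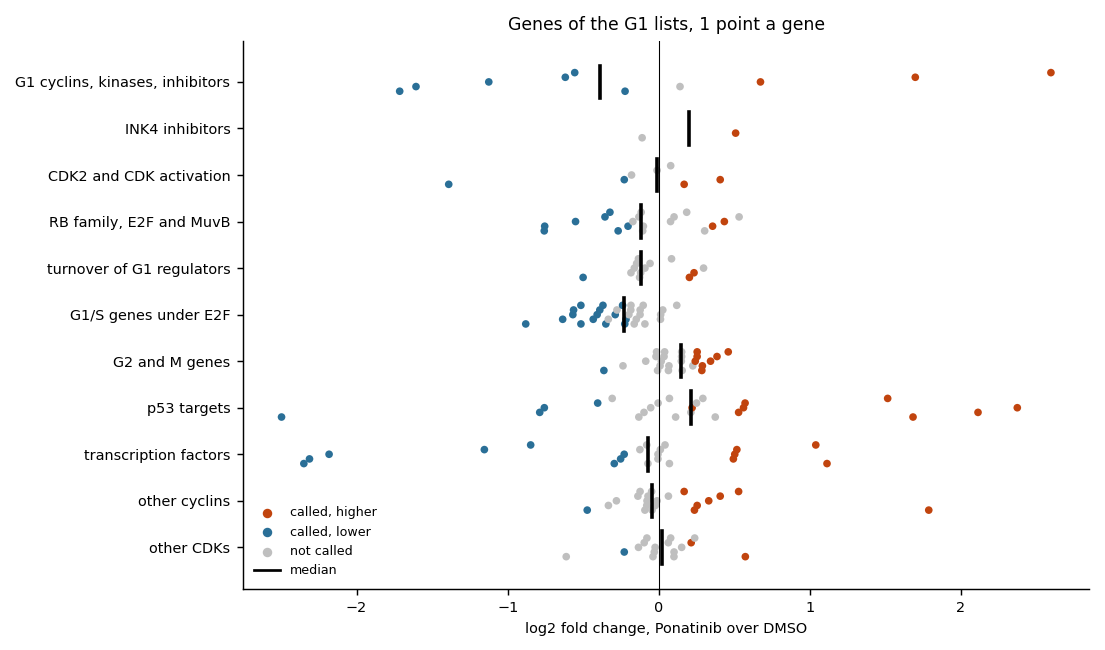
Log2 fold change of Ponatinib over DMSO (x axis) for each tested gene of the G1 cyclins, kinases and inhibitors and of the 10 functional lists (y axis), coloured by whether it was called, with a bar at each list's median. No called gene of the G1/S list lies to the right of 0, the p53 targets span -2.50 to 2.37, and the transcription factors span -2.35 to 1.11.

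The knockdowns were first checked on their targets. ABL1 had 186.0 CPM in shCtrl, 72.6 in the ABL1 knockdown, 204.7 in the ABL2 knockdown and 110.6 in the double knockdown. ABL2 had 231.3, 211.9, 94.5 and 149.4 CPM in the same order. Each single shRNA thus lowered its own target past 2-fold, to ratios of 0.383 and 0.396 of shCtrl, and the combination lowered both by less, to 0.576 and 0.625. In the Ponatinib comparison ABL2 mRNA itself fell 2.03-fold (edgeR adjusted p = 8.6e-08).

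In the ABL knockdowns the largest differences from shCtrl among the 10 genes were a lower CDKN1C in all 3 knockdowns and a lower CDK6 with ABL2 shRNA. Next in size was a lower CCND2, from few counts, with ABL1 shRNA (log2 ratio -0.96) and with both (-0.86). CCND1 was higher in all 3 by a smaller amount. With 1 sample a group the knockdowns have no replicate check, so each ratio to shCtrl is given with a 95% exact interval that covers counting error only, and all 3 ratios share the 1 shCtrl sample. Past 2-fold were CDKN1C with ABL1 shRNA, CDK6 with ABL2 shRNA, and CDKN1C with both, that is 1 of 10 genes each time. Among all genes with a mean of at least 10 counts the share past 2-fold was 7.01% with ABL1 shRNA (3.65% above and 3.36% below shCtrl), 5.96% with ABL2 shRNA (3.60% and 2.36%) and 5.84% in the double knockdown (3.32% and 2.52%). With library totals in place of TMM, CDK6 with ABL2 shRNA (log2 ratio -0.98) and CDKN1C in the double knockdown (-0.97) were no longer past 2-fold. At a 1.5-fold threshold 2, 3 and 2 of the 10 passed, against 21.5%, 17.4% and 18.8% of all genes. An edgeR fit of all 8 samples, which takes the spread of the shRNA samples to be that of the DMSO and Ponatinib pairs, called 4, 6 and 5 of the 10, against 22.0%, 15.6% and 17.8% of the 18275 genes tested. CCND1 and CDKN1C were called in all 3 comparisons by that fit, with edgeR adjusted p-values of at most 0.00016 and 0.00032.

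CDKN1C had 24.9 normalized CPM in shCtrl and 11.1, 12.5 and 12.3 with ABL1, ABL2 and both shRNAs. The ratios were 0.446 (0.362 to 0.547), 0.501 (0.410 to 0.611) and 0.493 (0.401 to 0.603), the second just short of 2-fold. CCND1 had 544.8 normalized CPM in shCtrl and 810.2, 783.1 and 790.6 in the knockdowns, with ratios of 1.49 (1.44 to 1.54), 1.44 (1.39 to 1.48) and 1.45 (1.41 to 1.498). The 3 knockdown samples stood close together for both genes and shCtrl stood apart, and a departure of the lone shCtrl sample cannot be told apart from a shared effect of the knockdowns. Of 14769 genes measured in all 3, 28.9% were above shCtrl each time and 31.0% below.

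CDK6 had 237.0 normalized CPM in shCtrl, 254.2 in the ABL1 knockdown, 116.5 in the ABL2 knockdown and 189.8 in the double knockdown. The ratios were 1.07 (1.02 to 1.13), 0.492 (0.461 to 0.524) and 0.801 (0.757 to 0.847) in that order. CDKN1A and CDKN1B, too, stood out in the ABL2 shRNA sample. CDKN1A was at 80.5 normalized CPM in shCtrl and 89.5, 123.7 and 97.1 in the knockdowns, its ratio with ABL2 shRNA being 1.54 (1.42 to 1.67). CDKN1B was at 124.6 in shCtrl and 147.0, 89.1 and 125.6 in the knockdowns, its ratio with ABL2 shRNA being 0.715 (0.661 to 0.774).

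CCND3 had ratios of 1.28 (1.19 to 1.38), 1.05 (0.970 to 1.14) and 1.39 (1.29 to 1.503) in the ABL1, ABL2 and combined knockdowns. CDK4 was slightly lower in each, at 0.856, 0.779 and 0.858. CCND2, with 40 to 68 counts, had ratios of 0.516 (0.340 to 0.773), 0.877 (0.615 to 1.25) and 0.550 (0.363 to 0.825). For the E-type cyclins no difference was detectable at this depth. CCNE1, with 74 to 90 counts, had ratios of 0.962, 0.837 and 0.844, CCNE2, with 154 to 191 counts, of 1.002, 1.12 and 1.02, and every interval included 1.

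**Figure D5:**
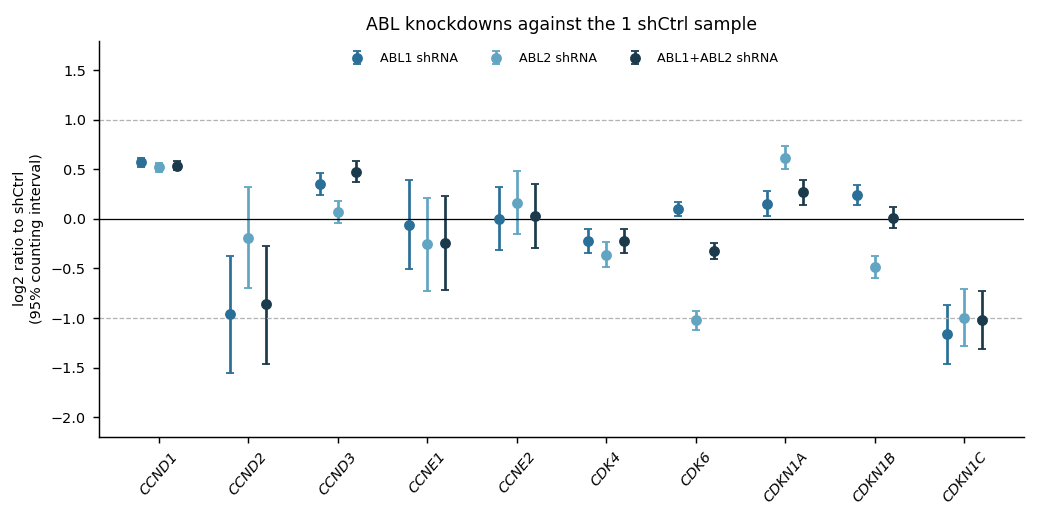
Log2 ratio of each knockdown to the 1 shCtrl sample (y axis) with its 95% exact counting interval for the 10 genes, with dashed lines at 2-fold. CCND1 lies at 0.52 to 0.57 in all 3 knockdowns, CDKN1C at -1.17 to -0.997, and CDK6 at -1.02 with ABL2 shRNA and 0.10 with ABL1 shRNA.

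The 2 experiments had no sample in common, and their values can be set side by side. CCND1 had a log2 fold change of -1.61 with Ponatinib and a log2 ratio of 0.54 with both shRNAs, CCND2 of 2.60 and -0.86, and CDKN1C of 1.70 and -1.02. The direction with Ponatinib was the direction with both shRNAs in 5 of the 10 genes (CCNE1, CDK4, CDK6, CDKN1A and CDKN1B). Some of these directions are not established. The counting interval with both shRNAs spanned no change for CCNE1 and CDKN1B, and also for CCNE2 among the genes that differed in direction. CDKN1A did not pass the test with Ponatinib. With each single shRNA the direction was the same in 4 of 10. Of all genes measured in both experiments, the share with the same direction was 47.8% with both shRNAs, 49.2% with ABL1 shRNA and 50.9% with ABL2 shRNA.

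Genes whose level followed CCND2 and CCNE1 most closely were sought among 10229 genes with a mean of at least 10 CPM, by Pearson's r of log2(CPM + 1) over the 8 samples after centring within each experiment. For CCND2 they were SEC63 (r = 0.995), CBFA2T2 (0.994), SLC43A1 (0.993), RUNX2 (0.993) and PPARGC1A (0.993). For CCNE1 they were SRSF7 (0.986), VPS25 (0.984), PTRH2 (0.984), PNO1 (0.983) and NR2C2AP (0.982). CCND2 and CCNE1 had the largest rise and the largest fall with Ponatinib among the 10 genes. CCND2 ranged from 3.781 to 25.23 CPM in the DMSO and Ponatinib samples and from 3.074 to 5.857 CPM in the shRNA samples. For CCNE1 the ranges were 2.907 to 14.68 CPM and 6.101 to 7.063 CPM. A high r therefore mostly reflects the difference between DMSO and Ponatinib, and likeness within the shRNA samples was not tested separately. The points share their libraries, and no test was made of r. Similar shape did not mean similar size, since PPARGC1A had a log2 fold change of 2.09 with Ponatinib and SEC63 one of 0.20.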

How the data were processed

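RNA-seq of LM2 cells was analysed in 8 samples. The authors mapped the reads to hg38 with TopHat and counted them per gene with HTSeq 0.6.0 per the labels, and deposited raw counts without normalization, 1 file a sample. The annotation release and strand setting are not given in the sources used here. The shRNA files end in rows of the counter for unassigned reads (9.48% to 9.90% of reads in no gene, 6.12% to 6.32% ambiguous), which were left out. The condition in the header cell is exchanged between the files of shCtrl and ABL1 shRNA; samples were used as labelled, and ABL1 counts follow the labels.

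Symbols, positions and exon lengths came from GENCODE on GRCh38 by Ensembl ID (93.4% of IDs matched). Ponatinib was tested against DMSO with edgeR 4.0.16 in R 4.3.3 (TMM, filterByExpr, quasi-likelihood test, prior count 0.125, Benjamini-Hochberg adjustment). Normalized CPM are TMM-scaled and CPM use library totals. Knockdown ratios used TMM scaling and exact Clopper-Pearson intervals (SciPy 1.17.1). In a simulation of the Ponatinib comparison over 15996 genes, 99 of 100 genes changed by 1 on the log2 scale were recovered. Of those changed by 2, 100 of 100 were recovered, and 10 unchanged genes were called. The changed genes were drawn only from those with higher mean counts and split evenly between rises and falls. The spread was a set value, not the one estimated from the data, so this recovery is not the power of the real comparison.

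The rule named the 10 members, ABL1, ABL2, the 3 largest called changes of each list and the 5 genes most like CCND2 and CCNE1. Given values outside this rule were MYC, TCF7L2 and the 3 FOXO genes. LTO1, INTS8 and TSPAN31 were named for their position, and VIM, PECAM1 and COL1A1 as cell markers. The members and lists were chosen with earlier results of these data known, and the lists were written by hand. Alternatives were DESeq2 1.42.0, limma-voom 3.58.1, other scalings, filters and prior counts, a fit of all 8 samples, the replicate block, other call rules and fits without 1 of the 4 drug-experiment samples.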

Additional observations from a re-analysis of the deposited data

How the results depend on the processing

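The 10 genes kept their direction with Ponatinib under all 13 alternatives, and each call held except those of CDK4 and CDKN1A given above. Between 8 and 10 of the 10 were called when 1 DMSO or Ponatinib sample was left out (a lone sample is then assumed to vary like the pair), and 5 by the fold rule. Of all genes, 4917 were called, 2809 by DESeq2's Wald test, 878 by the fold rule and 2800 to 5744 with 1 sample left out, the fewest without DMSO replicate 1 (2800) and DMSO replicate 2 (3242).

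By the fold rule 0 INK4 genes passed, 1 of the CDK2 activation list, 0 each of the RB, turnover, G1/S, G2 and M and other CDK lists, 5 p53 targets, 6 transcription factors and 1 other cyclin. With DESeq2's Wald test 1 gene of the CDK2 activation list, 5 other cyclins and 1 other CDK passed. With library totals 14 G2 and M genes passed. With 1 sample left out the calls ranged from 1 to 5 in the CDK2 activation list, 1 to 6 in the turnover list, 4 to 13 among G2 and M genes, 3 to 10 among other cyclins and 1 to 5 among other CDKs, the lowest each without a DMSO sample. Within the pairs, the chi-square per gene of the counts was 1.44 for DMSO and 3.12 for Ponatinib, so the Ponatinib samples differed more from each other. The part of this in the calls was not tested.

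In the knockdowns 1 gene was past 2-fold each time. With library totals it was 0 with ABL2 shRNA and 0 with both. At 1.5-fold the counts were 2, 3 and 2 for ABL1, ABL2 and both shRNAs. An edgeR fit of all 8 samples, whose spread comes only from the DMSO and Ponatinib pairs, called 4, 6 and 5. Of 60 ratios under another scaling, 59 stayed within their counting interval.

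Samples of the same repeat number showed no shared deviation (r = -0.02 over 9421 genes). This cannot decide whether the repeats were run as pairs, since pairs need not share a deviation, and the labels leave it open. A fit that blocked on this number called 9 of the 10 genes and 4984 genes in all.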

Other observations

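Mitotic genes stood higher in 2 of the 3 knockdowns. In the list of 25 G2 and M genes, 5 were over 2-fold above shCtrl in the ABL1 knockdown, 0 in the ABL2 knockdown and 2 in the double knockdown, against 3.65%, 3.60% and 3.32% of all genes measured, and the median log2 ratio was 0.63, 0.06 and 0.72 (medians of all genes measured lay between -0.0092 and -0.0002). In the same order CDC20 had log2 ratios of 1.02, 0.06 and 1.12, and CDC25C of 1.18, 0.18 and 0.90. The G1/S list had medians of 0.32, 0.21 and 0.42, with at most 1 of 30 genes past 2-fold in a direction. Outside these lists, among genes named above for their change with Ponatinib, CCNA1 stood at 1.75, 0.99 and 1.76 and CCNG1 at 0.98, 1.30 and 0.99. CCNA1 had only 46 counts in shCtrl. Cyclins not named above differed as well, such as CCNF at 1.14, 0.49 and 1.08. Each value rests on 1 sample and the same shCtrl sample, with no replicate check.

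Outside the comparisons, shCtrl and the DMSO samples, both untreated with drug, differed in several of the 10 genes. CDKN1C had 24.4 CPM in shCtrl and 6.69 and 8.26 CPM with DMSO, CCND1 533.0 against 952.7 and 953.4 CPM, and CDK6 231.9 against 155.4 and 150.2 CPM. The sets differ in virus and selection, and whether their libraries were made together is not given in the sources used here.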
